A study of Homo sapiens and Mus musculus with 6 samples.

Results

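The long-range *cis*-chromosomal contacts of promoters in GM12878 cells, a human lymphoblastoid line made by transforming B lymphocytes with Epstein-Barr virus, are described here. They are pairs of *Hin*dIII fragments on the same chromosome whose midpoints lie at least 1 Mb apart. Promoter Capture Hi-C (CHi-C) ligates DNA ends that lie close together in the nucleus and enriches the resulting library for *Hin*dIII fragments with a promoter, the baits. A contact joins a bait to a further fragment, its other end, which may itself be a bait. The 3 biological replicates of GM12878 were combined into a single weighted mean read count for each fragment pair before contacts were called, so each pair has 1 value and the data hold no spread between replicates. GM12878 is a single line from a single donor, grown in culture. Its cell type could not be set against marker genes, because contact calls hold no expression values.

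The list for GM12878 gave 92929 calls, which are 88667 fragment pairs when a pair called from both of its ends is counted once. Of these, 88380 joined fragments of the same chromosome and 1313 spanned 1 Mb or more. Pairs in which both ends carry a promoter of the *HIST1H* histone genes were left out, which removed 232 long pairs. The remaining 1081 long-range pairs made up 1.23% of the 87853 *cis*-chromosomal pairs left when histone-to-histone pairs are removed at every distance. They used 1304 fragments, 701 of them baited and 603 unbaited, on 23 chromosomes. Every one of these fragments was a *Hin*dIII fragment of the hg19 genome.

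Chromatin moves as a constrained polymer, so the chance that a pair of fragments collides falls with the distance between them. Most regulated promoter contacts lie within topologically associating domains, whose borders are marked by the zinc finger protein CTCF and by cohesin, the ring-shaped complex that extrudes loops. Contacts beyond a domain are known from histone gene clusters, from Polycomb-bound developmental genes and from pairings of active or of silent compartments. CHiCAGO expresses how far a read count exceeds its expected background as a score, with weights that ask more evidence of distant pairs, and a score of at least 5 was called.

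The 12-base core of the CTCF motif was searched on both strands, with some positions free to be any base, and 2.69% of all 830217 *Hin*dIII fragments held it. Of the long-range pairs, 11 held a match at both ends. Those 11 included 3 pairs whose motifs point towards each other, the orientation typical of cohesin-anchored loops, and 1 pair from the *HOXD* cluster of developmental genes. Their motif windows are printed to show the matches, from hg19, 5′ to 3′ along the strand named, with the motif in capitals. Whether CTCF binds these windows was not tested. They were chosen after the values had been seen, because none of the pairs picked by score, reads or distance had a motif at both ends.

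HOXD10 and HOXD11 bait, chr2:176970925-176970976, minus strand: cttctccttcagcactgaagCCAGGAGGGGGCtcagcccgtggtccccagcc

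Other end of the HOXD10 and HOXD11 bait, chr2:178012732-178012783, minus strand: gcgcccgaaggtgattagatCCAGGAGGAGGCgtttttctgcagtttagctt

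Other end of the CTD-2203A3.1 bait, chr5:50258922-50258973, plus strand: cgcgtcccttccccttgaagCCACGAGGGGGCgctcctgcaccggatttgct

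CTD-2203A3.1 bait, chr5:51303242-51303293, minus strand: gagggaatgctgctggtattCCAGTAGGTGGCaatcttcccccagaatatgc

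ATXN2L bait, chr16:28837583-28837634, plus strand: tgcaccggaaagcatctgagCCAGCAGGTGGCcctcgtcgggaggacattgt

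DOC2A bait, chr16:30016983-30017034, minus strand: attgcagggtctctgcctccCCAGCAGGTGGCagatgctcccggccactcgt

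GPBP1 bait, chr5:56459461-56459512, plus strand: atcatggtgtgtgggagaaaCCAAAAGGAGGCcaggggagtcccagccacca

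PLK2 bait, chr5:57756217-57756268, minus strand: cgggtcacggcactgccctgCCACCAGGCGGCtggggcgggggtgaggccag

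The *HOXD10* and *HOXD11* bait met its other end, which overlaps an exon of a long noncoding RNA gene, 1.04 Mb away with 11 reads and a score of 7.26. The bait holds 1 motif match and its other end holds 2, not all of them printed. All lie on the minus strand, a tandem arrangement. The *ATXN2L* and *DOC2A* baits of chromosome 16 met over 1.19 Mb with 5 reads and a score of 6.2. The *GPBP1* and *PLK2* baits of chromosome 5 met over 1.29 Mb with 4 reads and a score of 5.04. The *CTD-2203A3.1* bait of chromosome 5 and an unbaited fragment met over 1.05 Mb with 7 reads and a score of 7.14. All 4 scores lie below 10.

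A motif at both ends was found in 1.02% of the long-range pairs (95% Wilson interval 0.569 to 1.81%), in 1.21% of the 5878 pairs of 500 kb to 1 Mb (0.959 to 1.52%) and in 1.61% of the 86772 pairs under 1 Mb (1.53 to 1.69%). Intervals here cover counting error alone, and contacts of neighbouring fragments are not independent. Of 10 long-range pairs with 1 motif orientation at each end, 3 were convergent, 5 tandem and 2 divergent. At 500 kb to 1 Mb, 29 of 61 such pairs were convergent, 47.5% (35.5 to 59.8%), against 30.0% (10.8 to 60.3%) here, and the intervals overlap. Baited fragments of long-range pairs held the motif in 10.3% of cases (8.24 to 12.7%) and unbaited ones in 4.31% (2.96 to 6.24%). *Hin*dIII fragments of like length held it in 6.55% and 3.58%, respectively, the latter within the interval. In pairs under 1 Mb the shares were higher, at 12.8% of baited and 6.63% of unbaited fragments. Fragments of like length to those held it in 6.97% and 4.21%.

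The median distance of the long-range pairs was 1.51 Mb (95% interval 1.46 to 1.54 Mb, order statistics). Of the 1081 pairs, 535 (49.5%) spanned 1 to 1.5 Mb and 290 (26.8%) spanned 1.5 to 2 Mb. A further 157 reached 2 to 10 Mb and 99 reached beyond 10 Mb, up to 217 Mb. The distances thus thinned out quickly and then gathered in a few narrow bands far away.

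**Figure D1:**
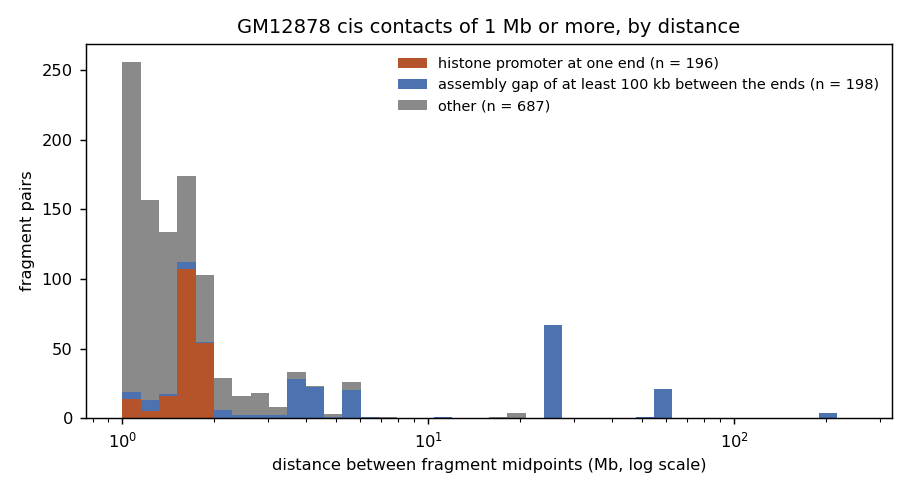
Number of fragment pairs (vertical axis) by distance between fragment midpoints in Mb (horizontal axis, log scale), stacked by 3 kinds of pair. The 196 pairs with a histone promoter at an end stand between 1 and 2 Mb, and the bars beyond 20 Mb consist of pairs with an assembly gap of at least 100 kb between the ends.

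The pairs were divided into 3 kinds, a division made after the values had been seen. 196 pairs had a *HIST1H* promoter at 1 end. 198 pairs had an assembly gap, a run of at least 100 kb of unknown bases in hg19, between their ends. The other 687 had neither, and their median distance was 1.26 Mb (1.23 to 1.3 Mb). Gaps were crossed by 18.3% of the long-range pairs (16.1 to 20.7%) and by 2.52% of the pairs of 500 kb to 1 Mb (2.15 to 2.95%), over shorter stretches of sequence.

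The read counts behind the long-range pairs were low. Reads are weighted means over the replicates, rounded. Their median was 6 (6 to 7), with a range of 3 to 24. *Cis*-chromosomal pairs under 0.05 Mb had a median of 36 reads, pairs of 0.5 to 0.75 Mb had 9 and pairs of 0.75 to 1 Mb had 8, so the counts did not step at the 1 Mb limit. At 1 to 1.25 Mb the median was 8, at 1.5 to 2 Mb it was 7 and at 3 to 10 Mb it was 4. Counts of 5 reads or fewer stood behind 34.3% of the long-range pairs (31.6 to 37.2%), 10.4% of those of 500 kb to 1 Mb (9.66 to 11.2%) and 1.8% of all those under 1 Mb.

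The median score was 6.51 (6.33 to 6.69) in long-range pairs, 6.19 (6.13 to 6.24) at 500 kb to 1 Mb and 6.61 (6.59 to 6.63) under 1 Mb. By kind it was 8.46 (7.61 to 9.07) in histone pairs, 8.35 (7 to 9.24) in pairs across a gap and 6.15 (5.99 to 6.3) in the others. A score of 10 or more was reached by 18.2% of the long-range pairs (16.0 to 20.6%), by 9.32% of the pairs of 500 kb to 1 Mb (8.61 to 10.1%) and by 15.8% of all pairs under 1 Mb (15.5 to 16.01%). These high scores were unevenly spread over the kinds, at 35.7% of the histone pairs, 35.4% of the pairs across a gap and 8.30% of the others (6.46 to 10.6%). Pairs across a gap had a median of 5 reads (4 to 5), against 7 in the others. Counts of 5 reads or fewer stood behind 71.7% of the former and 27.5% of the latter. The background expected by CHiCAGO falls with genomic distance, which in hg19 includes gap bases. Scores without gap bases were not computed.

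**Figure D2:**
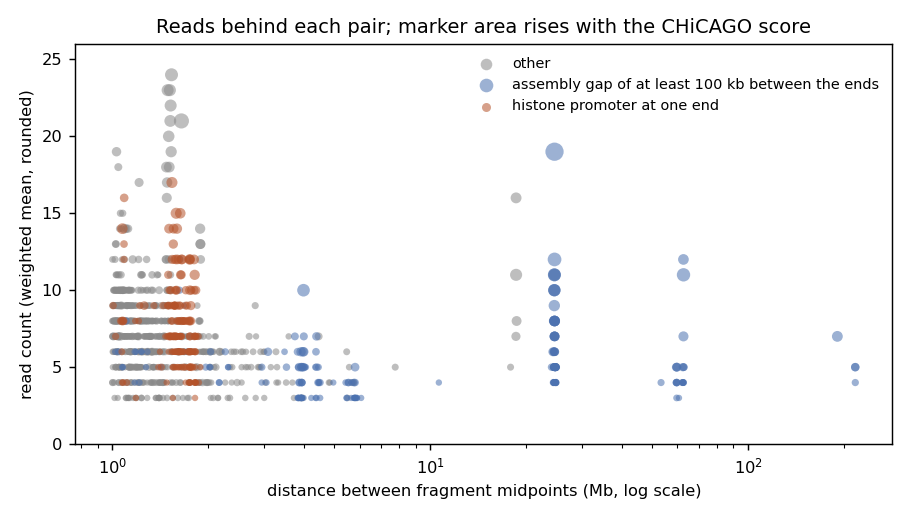
Read count of each long-range pair (vertical axis, weighted mean of the replicates, rounded) against its distance in Mb (horizontal axis, log scale), with marker area rising with the CHiCAGO score and colour giving the kind of pair. Most pairs sit at 10 reads or fewer, the highest counts, up to 24, belong to pairs near 1.5 Mb without a gap, and the largest marker is a pair across a gap near 24.6 Mb with 19 reads.

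The pairs nearest to the limit of 1 Mb had scores under 6 on either side, apart from 1. Just inside were a contact of the *PITPNM3* promoter with an exon of *NLRP1* at 1000.8 kb (8 reads, score 5.56), the *RBM38* and *VAPB* baits at 1001.3 kb (4 reads, 5.37) and a contact of *CSMD3* at 1001.5 kb (9 reads, 5.53). Just outside were a contact of *CTSO* with an intron of *PDGFC* at 999.3 kb (6 reads, 5.03) and contacts of the *METTL9* region at 998.6 kb (12 reads, 11.01) and 997.4 kb (6 reads, 5.94).

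Histone genes of the *HIST1H* group encode the core histones H2A, H2B, H3 and H4 and the linker histone H1. They lie on chromosome 6 in stretches near 26 and 27 Mb of hg19, and their transcripts are made in S phase in a nuclear body of their own. Of the 40 baits listed with a *HIST1H* symbol, 27 had a long-range contact with a fragment that carries no such symbol. The 196 contacts reached 64 distinct other ends, and 172 of the contacts had an unbaited other end. Every family took part, with H3 symbols in 76 pairs, H2A in 71, H4 in 53, H2B in 36 and H1 in 34, some baits holding genes of several families.

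The histone pairs were densely packed. 189 of them joined the 1 Mb area at 26 Mb with the area at 27 Mb. The median distance of all 196 was 1.62 Mb (1.59 to 1.64 Mb). A neighbouring long-range pair, with both ends within 50 kb, was present for 98.0% of them (94.9 to 99.2%). Their reads ran from 3 to 17 with a median of 7, and their median score was 8.46 (7.61 to 9.07).

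The *HIST1H1B* bait, which carries the promoter of a linker histone gene, had 25 such contacts with 4 to 14 reads and scores up to 22.53. Its other ends lay between 25959474 and 26354962. *HIST1H3H* had 21 contacts with 4 to 17 reads and a top score of 26.32. *HIST1H2AB*, in the opposite stretch, had 17 contacts with 5 to 14 reads and a top score of 24.36, all of them with fragments at higher coordinates. The bait of *HIST1H2AD* and *HIST1H3D* had 12, with 6 to 15 reads, and the highest score of any histone pair, 26.58. Baits on either side thus reached across to the other stretch.

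That highest score belonged to a contact with an unbaited fragment at chr6:27786656-27789605, and 14 histone contacts with 3 to 15 reads ended on the same fragment, the most for any unbaited fragment. It overlaps no annotated gene in GENCODE. A fragment at chr6:27852999-27857590 received 8 contacts with 4 to 12 reads, and one at chr6:26022603-26024396 received 7 with 7 to 16 reads. In GENCODE, 45 of the 196 other ends overlapped a histone gene or histone pseudogene, 37 of them unbaited. Most of these contacts thus ended on a fragment without an annotated histone gene. The selection favours this, because it left out 232 pairs of 1 Mb or more with a *HIST1H* promoter at both ends.

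Among the baited other ends, *HFE* stood out. *HFE*, the haemochromatosis gene, regulates iron uptake and lies among the histone genes, and its bait also overlaps the histone gene *H2BC4* in GENCODE. It had 8 long-range contacts with histone baits, with 4 to 7 reads and scores up to 10.77. *BTN2A1*, a butyrophilin gene, met the bait of *HIST1H2AM* and *HIST1H3J* over 1.4 Mb with 5 reads and a score of 5.86. *TRIM27*, a ubiquitin ligase gene, had 3 contacts with 4 to 5 reads and a top score of 11.25. The region between the histone ends was rich in genes, with a median of 23.9 protein-coding starts per Mb (22.8 to 25.5), against 2.69 (2.34 to 2.95) for pairs of neither special kind and 7.09 over hg19 without its gaps.

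The pairs across assembly gaps were led by chromosome 1. *ADAM30*, a testis metalloprotease gene near the centromere on the short arm, had 43 long-range contacts, the most of any bait. All of them reached fragments between 144532064 and 145118548 on the long arm, a stretch that holds *PDE4DIP*, which encodes a centrosome and Golgi scaffold protein. They had 4 to 19 reads with a median of 6. The pair of chr1:120431471-120440812 with chr1:145057443-145062795, in an intron of *PDE4DIP*, had the highest score of all long-range pairs, 80.23, with 19 reads. It spanned 24.6 Mb, of which 22 Mb are gap bases, so that 2.62 Mb of known sequence separate its ends. Its score was set with gap bases counted in the distance. In the same bait, 14 contacts under 1 Mb had 12 to 82 reads and scores of 5.02 to 16.51.

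Neighbours of *ADAM30* reached the same stretch. *PHGDH*, whose enzyme starts serine synthesis, had 9 contacts with 4 to 6 reads and a top score of 15.81. *REG4*, a secreted lectin gene, had 7 with 4 to 5 reads, and the zinc finger gene *ZNF697* had 6 with 4 to 5 reads. The contacts of the *ADAM30* bait with the baits of *PDE4DIP* (11 reads, score 30.68) and of the small nuclear RNA pseudogene *RNU2-38P* (5 reads, 10.28) were called from both ends. In all, 46 pairs joined the areas at 120 and 145 Mb and 21 pairs those at 120 and 144 Mb.

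On chromosome 10, *MSMB*, which encodes a protein secreted by the prostate, had 35 long-range contacts with 3 to 10 reads and scores up to 35.91. *AGAP7*, of a duplicated family of GTPase-activating proteins, had 21 with 3 to 5 reads and scores up to 14.57. Their other ends lay between 45601718 and 47703540. The leading pair of *MSMB* spanned 4.00 Mb with 0.35 Mb of gap bases. A gap of at least 100 kb lay within 500 kb of an end in 14.9% of all long-range pairs (12.9 to 17.1%). At 500 kb to 1 Mb it did so in 3.15% (2.73 to 3.63%). By kind the share was 78.3% in pairs across a gap (72.03 to 83.5%) and 0.873% in pairs of neither special kind (0.401 to 1.89%). The kinds were divided by gaps between the ends, so this contrast is in part set by the division. Whether the order of the assembly beside these gaps enters the distances was not tested.

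Distances counted without gap bases changed the upper end of the range. Of the 99 pairs over 10 Mb, 90 lay on chromosome 1 and 81 crossed a gap of at least 1 Mb. Without gap bases, 31 pairs stayed over 10 Mb and 14 of the 1081 fell under 1 Mb. The latter included contacts of the olfactory receptor baits *OR4A16*, *OR4C16* and *OR4P4* across the centromere of chromosome 11, 7 pairs of 3.53 to 4.07 Mb with 0.434 to 0.967 Mb of known sequence.

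The 31 pairs formed a few groups. 12 pairs joined a stretch at chr1:143991131-144021398 with promoters between 206222001 and 206862925, among them *RASSF5* (11 reads, score 40.8), which encodes a Ras effector of lymphocyte adhesion, *IKBKE*, a kinase gene of the NF-kB and interferon pathways, and *MAPKAPK2*. Their reads ran from 4 to 12. 8 pairs joined chr1:85990370-86005632 with promoters that include those of *TXNIP*, *PDZK1*, *ITGA10*, *POLR3C* and *RNF115*, with 3 to 5 reads. 5 pairs of chromosome 17 joined *KANSL1*, *RNU7-101P* and *GOSR2* with fragments at 62894740 to 62919105, by *LRRC37A3*, with 5 to 16 reads and scores up to 32.46.

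The longest pairs of all belonged to *PADI2* and *PADI3*, neighbouring genes of the enzymes that turn arginine into citrulline. They had 3 pairs of 217 Mb with 4 to 5 reads and scores of 8.52 to 13.96. The zinc finger gene *ZNF595*, near an end of chromosome 4, met a fragment near the opposite end, 191 Mb away, with 7 reads and a score of 25.08. An end of that pair had an alignment of at least 1 kb at 95% identity within 100 kb of the other end. So did the *KANSL1* pair that ends at 62894740 to 62897560 on chromosome 17. Such an alignment was present for 12 of the 1081 pairs, 10 of them across a gap, and for 19 of the 5878 pairs of 500 kb to 1 Mb. The longest pair of baits was *SUGT1* with *CUL4A* and *PCID2* on chromosome 13, at 60.6 Mb with 3 reads and a score of 5.41.

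The 687 pairs without a histone promoter or such a gap held the most reads. The bait with the promoters of *DNAH3*, an axonemal dynein gene, and *TMEM159*, a lipid droplet gene, lies at chr16:21166049-21171878. It had 34 long-range contacts with 7 to 24 reads, a median of 10, and scores up to 38.18, and 7 of the 10 long-range pairs with the most reads were its own. Its other ends lay between 22207648 and 22719599 and included the baits of *CDR2* (17 reads, score 16.04) and *EEF2K* (7 reads, 7.66), the latter the kinase of a translation elongation factor. The same bait had 32 contacts under 1 Mb with 8 to 54 reads. *METTL9*, a protein methyltransferase gene, reached into the same area and up to 23188326 with 17 contacts and 4 to 10 reads, and *ANKS4B* had 8 contacts of 4 reads each.

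**Figure D3:**
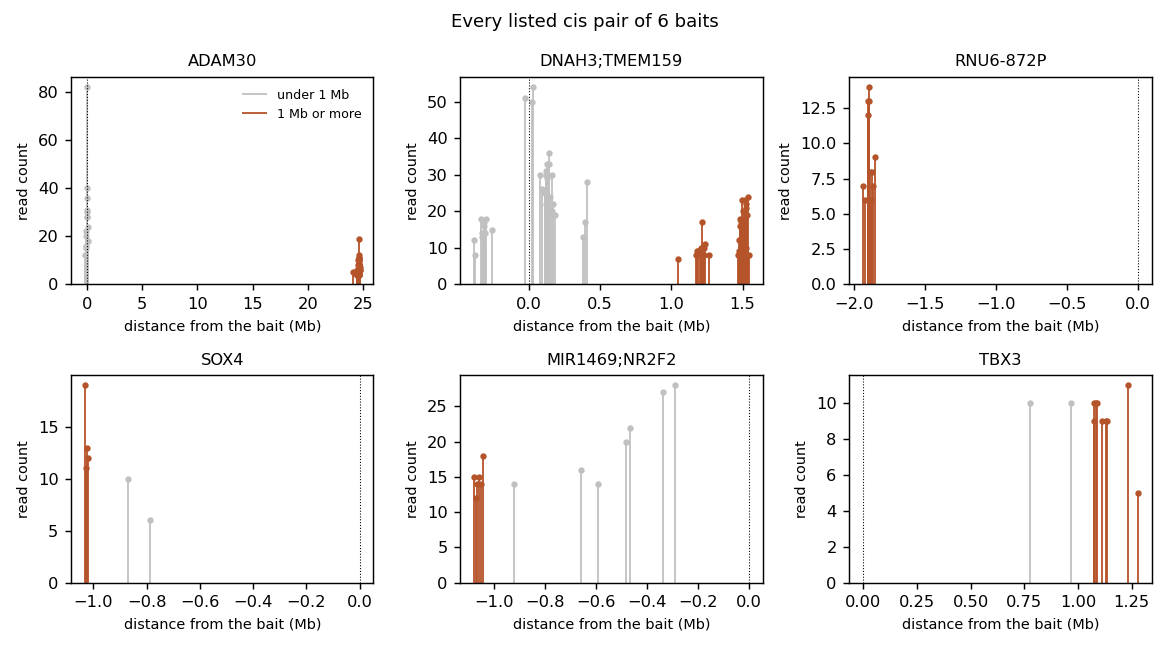
Read count (vertical axis) of every *cis*-chromosomal pair listed for 6 baits against the signed distance of the other end from the bait in Mb (horizontal axis), with pairs of 1 Mb or more in brown and shorter pairs in grey. The long-range pairs stand in tight groups away from the bait, 43 for ADAM30 near 24.6 Mb and 12 for RNU6-872P near 1.9 Mb, the latter with no shorter pair.

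The second highest score of all long-range pairs, 53.66, belonged to *OR4C5*, an olfactory receptor gene of chromosome 11. Its bait met a fragment 1.65 Mb away with 21 reads, and neighbouring fragments with 7 reads (score 11.78) and 5 reads (6.62). The other end with 21 reads is only 252 bases long and has 26.2% G and C. It lies in an intergenic stretch, and the whole fragment is printed because it carries this contact, with the remnant of the *Hin*dIII site in capitals (hg19).

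Other end of the OR4C5 bait, chr11:50038981-50039232, plus strand: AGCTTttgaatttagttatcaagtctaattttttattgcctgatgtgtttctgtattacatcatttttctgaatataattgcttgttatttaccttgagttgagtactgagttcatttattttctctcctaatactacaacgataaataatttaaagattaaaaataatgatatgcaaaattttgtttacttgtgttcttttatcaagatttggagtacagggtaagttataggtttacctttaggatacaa

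On chromosome 21 the bait with the most contacts is named for *RNU6-872P*, a pseudogene of U6, the small nuclear RNA at the core of the spliceosome. It had 12 long-range contacts with 6 to 14 reads and scores up to 22.19, at 1.85 to 1.93 Mb, and no contact under 1 Mb was listed. Its other ends lay between 28179929 and 28264776 and included the promoter of *ADAMTS1*, a secreted metalloprotease gene (12 reads, score 14.57). *AP001601.2*, a neighbour of *ADAMTS1*, added 2 pairs with fragments at 30135393 to 30150698.

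Small nuclear and nucleolar RNA symbols were frequent among the baits, and 102 of the 8432 *cis*-chromosomal pairs with such a symbol were long-range. That is 1.21% (0.998 to 1.47%), beside 1.23% of all pairs.

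Several promoters of developmental transcription factors had long-range contacts. *SOX4*, a factor of lymphoid and neural development, met 4 fragments in introns of *CDKAL1* with 19, 13, 12 and 11 reads and scores of 17.88, 9.58, 8.15 and 7.15. They lay at 1.02 to 1.03 Mb, while its shorter contacts, at 0.789 and 0.87 Mb, had 6 to 10 reads. Reads were thus higher in the more distant group. *NR2F2*, a nuclear receptor gene whose bait also holds *MIR1469*, had 6 contacts with 12 to 18 reads at 1.05 to 1.08 Mb, and the one with 18 reads (score 11.38) ended on the start of the noncoding RNA gene *LETR1*. The 7 shorter contacts of this bait had 14 to 28 reads. A second *NR2F2* bait, shared with *NR2F2-AS1*, had 2 long-range contacts with the same stretch, with 9 to 10 reads.

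*TBX3*, a T-box factor gene of limb and heart development, had 9 long-range contacts with 5 to 11 reads and scores up to 9.7. They spread from 1.07 Mb to the promoter of *MED13L*, a Mediator kinase module gene, at 1.28 Mb (5 reads, score 5.29). *HOXD8* (7 reads, score 8.24) reached the same fragment, chr2:178011536-178013882, as *HOXD10* and *HOXD11* did. *FOXP2* had 4 contacts with 3 to 8 reads and scores of 5.17 to 5.67, *MEIS1* had 2, and *DLX6* had 2 with *DYNC1I1*, by its promoter (3 reads, 6.68) and its intron (9 reads, 6.23). Together the homeobox and developmental list had 25 long-range pairs among 1270, 1.97% (1.34 to 2.89%), from 14 of its 200 symbols.

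Genes of B cell identity had 6 long-range pairs among 795, 0.755% (0.346 to 1.64%), from 4 of 57 symbols, and the interval includes the 1.23% of all pairs. *BCL6*, the repressor that governs germinal centre B cells, had 3 of them, with an intron (12 reads, score 9.5), an exon (9 reads, 6.21) and the promoter (7 reads, 5.13) of *TPRG1* at 1.2 to 1.37 Mb. *CCR7*, a receptor for lymph node homing, met an intergenic fragment over 1.12 Mb (8 reads, 7.47). *CD80*, a co-stimulatory ligand, met the promoter of *PARP15* over 3.03 Mb (4 reads, 5.88), and *MEF2C* met an exon of *LINC01339* over 1.37 Mb (6 reads, 5.27). *MIR155HG*, the host gene of the B cell microRNA miR-155, met the bait of *C21orf91-OT1* over 7.77 Mb with 5 reads and a score of 7.6.

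The list of NF-kB and TNF genes had 2 long-range pairs among 716, 0.279% (0.0766 to 1.01%), from the antisense RNA *BIRC6-AS1* and from *NFKBIL1*. *IKBKE*, whose 3 pairs are among those described above, is not on that list. Interleukin, chemokine and interferon genes had 1 among 906, 0.11% (0.0195 to 0.623%), which was that of *CCR7*. MHC genes had 2 among 277, 0.722% (0.198 to 2.59%), which were *HLA-E* with *DDX39B* at 1.05 Mb (5 reads, 8.36) and *TAPBP* with *NFKBIL1* at 1.77 Mb (4 reads, 5.29). Clustered protocadherin genes had 0 of 603, which allows a share of up to 0.498% (3 counts of the total), keratin genes 0 of 438 (up to 0.685%) and immunoglobulin genes 0 of 43 (up to 6.98%).

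**Figure D4:**
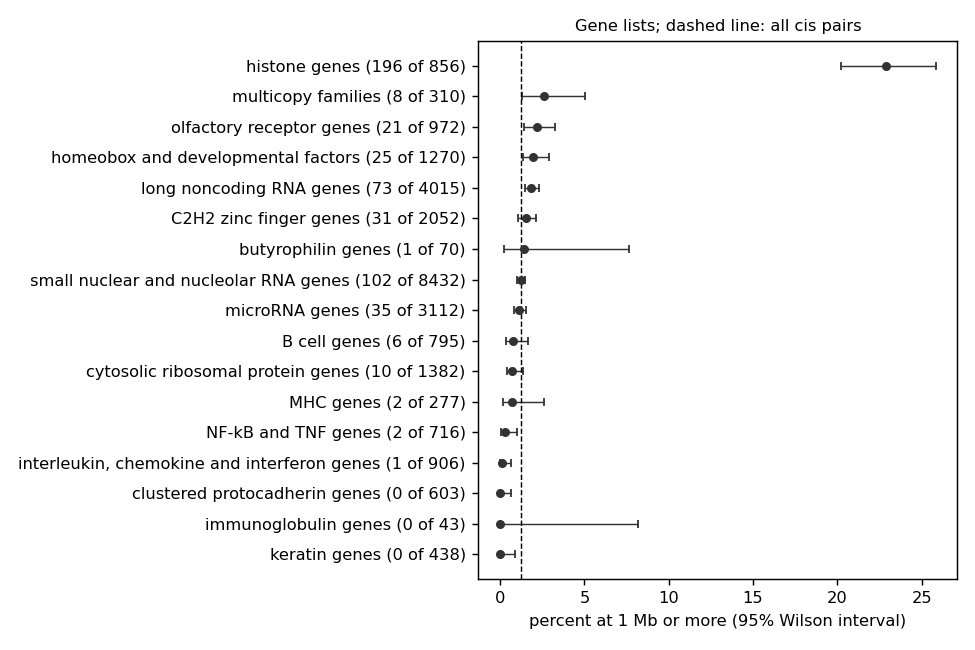
Share of the *cis*-chromosomal pairs of each gene list that span 1 Mb or more (horizontal axis, percent, points with 95% Wilson intervals), with the long-range and all pairs of each list in brackets. Histone genes lie far to the right at 22.9%, and the dashed line is the 1.23% of all *cis*-chromosomal pairs.

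Histone genes had 196 long-range pairs among 856, 22.9% (20.2 to 25.8%), after their pairs with each other had been removed. Long noncoding RNA genes had 73 among 4015, 1.82% (1.45 to 2.28%), and olfactory receptor genes 21 among 972, 2.16% (1.42 to 3.28%), 12 of these across a gap. C2H2 zinc finger genes had 31 among 2052, 1.51% (1.07 to 2.14%), including *ZNF146* and *ZNF565* with *ZNF383* at 1.02 Mb (8 reads, score 11.78). MicroRNA genes had 35 among 3112, 1.13% (0.81 to 1.56%). Ribosomal protein symbols had 10 among 1382, 0.724% (0.394 to 1.33%), 4 of them from the bait of *RPS24* and *POLR3A* with *ZMIZ1*, *PPIF* and the sequence between. Since pairs of 1 bait are counted singly, these shares rest on few promoters.

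The list of multicopy families shows that dependence. Its 8 long-range pairs among 310, 2.58% (1.31 to 5.01%), all came from *MAGEL2*, an imprinted gene of the Prader-Willi region on chromosome 15 that belongs to the MAGE family by sequence. *MAGEL2* met *SNHG14*, the host of the *SNORD116* small nucleolar RNAs, by baits with 7 reads (score 12.72) and 4 reads (8.16), *NPAP1* with 9 reads (6.78) and an exon of *SNRPN* with 7 reads (6.37). It also met an exon of *ATP10A* (6 reads, 6.14). These genes lie in the imprinted region or at its border.

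Other blocks of pairs joined a few promoters to a distant stretch. On chromosome 5, *RGMB*, a co-receptor gene of bone morphogenetic proteins, and *CHD1*, a chromatin remodeller gene, led 15 pairs with the area at 96 Mb, which had 5 to 9 reads and spanned 1.2 to 1.98 Mb. *MYSM1*, a histone H2A deubiquitinase gene needed for B cell development, had 9 contacts with 8 to 10 reads at 1.01 to 1.12 Mb, ending around *HOOK1*, and 3 fragments beside it met the *HOOK1* bait in turn with 9 to 10 reads. *IGFBP2* and *IGFBP5*, adjacent genes of insulin-like growth factor binding proteins, had 4 contacts each with the same stretch, from 218556424 to 218601792. *BASP1*, a gene of a membrane and nuclear signalling protein, had 6 contacts with 7 to 14 reads and a top score of 19.39. None of these groups crossed a gap of 100 kb or more.

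The long-range pairs were concentrated. They fell into 373 pairs of 1 Mb areas, of which 243 held a single pair. The 10 fullest held 435, or 40.2%. Similarly, 525 of the 701 baited fragments had a single long-range pair, 46 had at least 5 and 14 had at least 10. For 145 baited fragments no contact under 1 Mb was listed. A neighbouring long-range pair with both ends within 50 kb was present for 61.7% (58.8 to 64.6%), and for 45.1% (41.4 to 48.9%) of the pairs of neither special kind. Among pairs of 500 kb to 1 Mb, 67.6% (66.4 to 68.8%) had a neighbour in that range. Neighbours were sought within each set, and the shorter set holds 5878 pairs, so the shares are not like for like.

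Contacts between baits made up 279 of the 1081 pairs, 25.8% (23.3 to 28.5%). The share was 31.0% (29.9 to 32.2%) at 500 kb to 1 Mb and 25.7% (25.4 to 25.97%) under 1 Mb. It was 12.2% for histone pairs, 12.6% for pairs across a gap and 33.5% (30.1 to 37.1%) for the others. The 232 pairs left out, with a *HIST1H* promoter at both ends, all join baits, so the selection lowers the histone share. With them kept, 38.9% (36.3 to 41.6%) of all pairs of 1 Mb or more joined baits. Of the 279, 24 were called from both ends, 8.6% (5.85 to 12.5%), against 11.7% (10.3 to 13.2%) at 500 kb to 1 Mb.

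The unbaited ends of the 802 remaining pairs lay in intergenic sequence in 40.4% (37.1 to 43.8%), in introns in 31.5%, on exons in 19.7% (17.1 to 22.6%) and on an annotated transcription start in 8.35%. At 500 kb to 1 Mb the same classes held 31.2% (29.8 to 32.7%), 29.6%, 30.4% (29.02 to 31.9%) and 8.73%. Intergenic ends were thus more frequent and exonic ends less frequent among the long-range pairs. The 802 ends are 603 distinct fragments, 1 of them in 14 pairs, so the intervals are too narrow to judge the difference. Unbaited fragments of the long-range pairs were also shorter, with a median of 3839 bp (3706 to 4119) against 4541.5 bp (4411 to 4652). Their G and C content was 40.3% (39.9 to 41.1%) against 41.4% (41.1 to 41.6%). Whether fragment length enters the shares of the classes was not tested.

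Chromosomes differed in the share of their *cis*-chromosomal pairs that were long-range. The share was 4.19% (3.7 to 4.75%) on chromosome 6, 3.42% (2.36 to 4.93%) on chromosome 21, 3.1% (2.56 to 3.76%) on chromosome 10, 2.46% (1.63 to 3.69%) on chromosome 13 and 2.11% (1.72 to 2.59%) on chromosome 16. It was 0.214% (0.0728 to 0.627%) on chromosome 22 and 0.309% (0.198 to 0.482%) on chromosome 17. Pairs of a histone promoter or across a gap were then left out of the long-range count, with the total unchanged. Chromosome 6 came to 0.726%, chromosome 10 to 1.04% and chromosome 1 to 0.451%, while chromosomes 21 and 16 did not change.

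**Figure D5:**
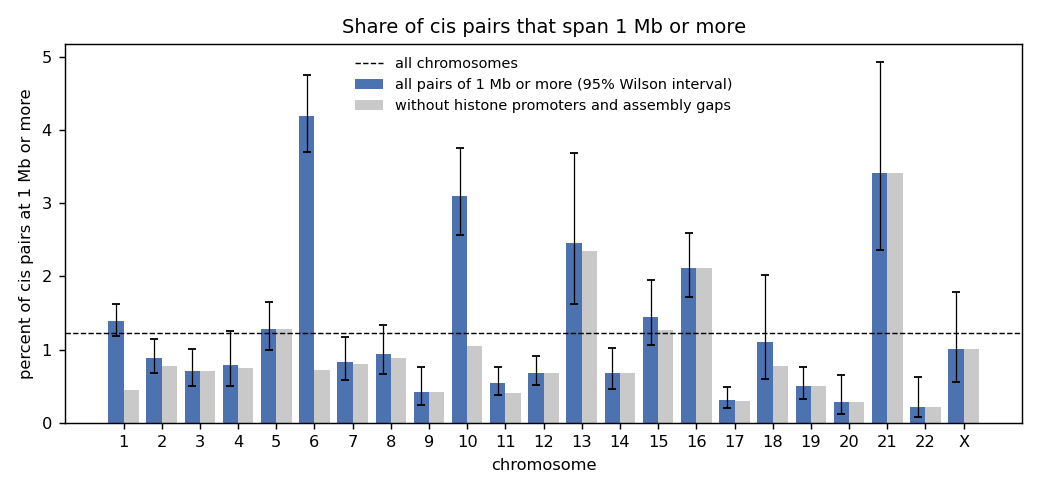
Share of *cis*-chromosomal pairs that span 1 Mb or more (vertical axis, percent) on each chromosome (horizontal axis), for all pairs (blue, 95% Wilson intervals). Grey bars leave pairs of a histone promoter or across an assembly gap out of the long-range count but not out of the total. The dashed line marks 1.23% over all chromosomes, and the blue bar of chromosome 6 at 4.19% drops to 0.726% in grey.

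Mouse embryonic stem cells (mESCs), for which CHi-C calls from 2 pooled replicates were given, allowed a check of the promoter pairs across species. Symbols in capitals stood in for orthologues. Of the 279 bait-to-bait pairs, 76 had both symbols among mESC baits of the same mouse chromosome, and 4 of these (5.26%, 2.07 to 12.8%) were also called in mESCs. At 500 kb to 1 Mb, 110 of 544 were (20.2%, 17.1 to 23.8%). The 4 pairs were *FZD10* with *TMEM132C* (4 reads in GM12878, 6 in mESCs), *LAPTM5* with *SRSF4* (6 and 4), *ACTBL2* with *GAPT* (8 and 9) and *TBX3* with *MED13L* (5 and 7). *LAPTM5* encodes a lysosomal protein of blood cells. Their distances were 1.01 to 1.89 Mb in GM12878 and 0.901 to 1.38 Mb in mESCs. Only the human distance had to reach 1 Mb, and the cell types differ along with the species.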

How the data were processed

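Promoter CHi-C contacts of GM12878 were taken from the deposited list that pools the 3 replicates. Per the methods, the authors processed reads with HiCUP (the submitters' processing notes name Bowtie 1.1.0), mapped human reads to hg19 and called contacts with CHiCAGO. The deposited columns are a read count, a weighted mean over replicates rounded to whole numbers, and a CHiCAGO score, both treated as a score rather than raw counts, so no count model was fitted. The study gives captured read pairs per replicate, which differ between replicates, but the pooled list does not hold them and they were not used here. The paper left the first replicate out of weight estimation because the estimates became unstable, likely through its poorer quality. The calls still rest on all 3 replicates. Pooling leaves no replicate spread. Lines were read in pairs, bait then other end, and each fragment pair was counted once. Distances run between fragment midpoints. Shares carry 95% Wilson intervals and medians exact order-statistic intervals, for counting error only.

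Pairs were annotated with GRCh37 sequence and GENCODE 44 lifted to it, gaps were runs of unknown bases, and fragment ends were aligned with blastn 2.17.0. Python 3.11.15, pandas 2.3.3, numpy 2.4.6 and scipy 1.17.1 were used, and the code was tested on simulated data. Pairs named were the 10 highest in score, the 10 highest in reads, the 5 longest, the 5 longest between baits, the 10 leading baits and area pairs, the 3 highest in score of each of 17 gene lists, and the 3 on each side of 1 Mb. Other pairs, and the sequences, were chosen after their values were seen. The members and lists were chosen with earlier results of these data known. Mouse Hi-C was not used here. A few pairs and 1 sequence are not reported here.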

Additional observations from a re-analysis of the deposited data

How the results depend on the processing

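Of 103 alternatives, 51 stayed the same and 52 moved. Staying meant within the counting error of the main value, except for the number of pairs, which had a looser limit. Under it, the 1313 pairs with histone-to-histone pairs kept counted as the same as 1081. Nearest edges instead of midpoints, calls counted as listed, the browser version of the list and leaving out pairs whose ends share sequence moved nothing. The browser version gave the same 1081 pairs, and shared sequence took out only 1 pair, so neither could move much. A score of at least 10 left 197 pairs (1.37% of pairs with that score), with a median of 1.75 Mb and 8 reads, 26.9% over 10 Mb, 11.7% bait to bait, 23.9% across a gap of at least 1 Mb, 79.7% with a neighbour and 0% with a motif at both ends. Keeping histone-to-histone pairs gave 1.48% of pairs, 1.57 Mb, 7.54% over 10 Mb, 38.9% bait to bait and 68.5% with a neighbour. A minimum of 2 Mb left 256 pairs (0.289%), with 4.9 Mb, 5 reads, 38.7% over 10 Mb, 18.8% bait to bait, 36.3% across such a gap and 65.6% with a neighbour. Taking 1 pair per pair of areas gave 1.33 Mb, 3.49% over 10 Mb, 46.9% bait to bait, 2.95% across such a gap and 1.61% with a neighbour. Without chromosome 6 the values were 1.4 Mb, 11.7%, 29.3%, 11.0% and 53.8%. A neighbour within 20 kb was found for 51.2% and within 200 kb for 75.6%. A looser motif, with 1 more free position, stood at both ends of 3.79%, and the motif with 5 kb on either side of 3.05%. Gaps of at least 100 kb were crossed by 18.3%. 3 of the settings were chosen after seeing the data. Leaving out pairs across a gap of at least 100 kb gave 1.38 Mb, 0.566% over 10 Mb, 28.8% bait to bait, 0% across a gap of at least 1 Mb and 56.9% with a neighbour. Leaving out histone pairs gave 1.39 Mb, 11.2%, 28.8%, 10.5% and 53.7%, and leaving out both gave 1.26 Mb, 0.728%, 33.5%, 0% and 45.1%. The causes were not tested. No paired analysis was possible because the contact list pools the replicates, and for the same reason leaving out each replicate could not be run. Reads of 3 to 24 per pair limit every statement on a single contact.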
